A study of Mus musculus with 24 samples.

Results

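The mitochondrial genome of the mouse carries 37 genes in the GENCODE M21 annotation, and all of them, the genes with symbols starting with mt-, were taken from the 54232 genes listed for each library. They are 13 genes for proteins of the respiratory chain, 2 genes for ribosomal RNAs and 22 genes for transfer RNAs. The mitochondrial genes mt-Nd1 to mt-Nd6 and mt-Nd4l encode subunits of complex I, mt-Cytb a subunit of complex III, mt-Co1 to mt-Co3 subunits of complex IV, and mt-Atp6 and mt-Atp8 subunits of the ATP synthase. Of the 37 genes, 16 had fragments in the unstranded counts and 21, all of them transfer RNA genes, were at 0 in every library. A count of 0 allows up to 3 fragments per library that lie on that gene alone, and sets no limit on the RNA, since fragments overlapping a neighbouring gene are left out of these counts.

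RNA was measured in the cerebella of 24 mice aged 6 weeks, 1 library per mouse, on a C57BL/6J background. The WT group held 8 mice with unexpanded alleles of Atxn1, the gene whose CAG-repeat expansion causes spinocerebellar ataxia type 1 (SCA1). SCA1 mice (n = 4) carried 1 expanded allele beside 1 unexpanded allele, from an existing knockin line. In SCA1 S776A mice (n = 4) the S776A change, from a serine to an alanine, lay on the expanded allele, in S776A double mice (n = 4) on both the expanded and the unexpanded allele, and in WT S776A homozygous mice (n = 4) on both unexpanded alleles. The S776A alleles were made by CRISPR/Cas9 editing, are present in every cell and also carry synonymous changes for genotyping.

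Mitochondrial DNA is transcribed on both strands into long precursors that are cut, mostly at the transfer RNAs lying between the other genes, into single RNAs. The RNAs therefore start from few promoters in common, and their levels are set largely by how long each lasts after cutting. The nucleus supplies the RNA polymerase, the transcription factors and the proteins that cut, modify and degrade these RNAs. Neurons use mitochondrial ATP heavily, and Purkinje cells, the cerebellar neurons most affected in SCA1, have large energy needs.

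The libraries fell into 2 inferred sequencing batches. Batch 1 held 16 libraries (4 WT and all SCA1, SCA1 S776A and S776A double mice) and batch 2 held 8 (4 WT and the 4 WT S776A homozygous mice). Fragments outside annotated genes made up 9.52% to 12.0% of the libraries in batch 1 and 5.23% to 6.31% in batch 2. The batch of each library was not listed in the sources used here, so WT values are those of the 4 WT mice in the same batch as the genotype compared, and labels do not say whether mice shared litters. Between 62163600 and 88430180 fragments per library were counted on genes, of which 2027974 to 5037631 lay on mitochondrial genes. Markers of Purkinje and granule cells were present in every library, with sums of 4974 to 7556 and 3112 to 4834 CPM (each count scaled to a common library size after TMM normalization, a correction for composition). Purkinje markers differed with genotype and are given beside the SCA1 results. Markers of the choroid plexus, a tissue beside the cerebellum, ranged from 19.9 to 5113 CPM and their part in any difference was not tested.

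A stretch of the mitochondrial genome is also present in the nuclear genome, and the counts of the mitochondrial genes differed sharply between the inside and the outside of it. A search of the annotated transcripts found 7 neighbouring pseudogenes on chromosome 1 of GRCm38, from 24611535 to 24616197 on the minus strand, that match the mitochondrial genome from position 6390 to 11042 at 99.7% to 100% identity and with nearly the same spacing. The distances between successive copies were 140, 233, 2 and 69 bases on both genomes and 73 against 74 bases at 1 place. This copied stretch holds 31.3% of mt-Co1, all of mt-Co2, mt-Atp8, mt-Atp6, mt-Co3, mt-Nd3 and mt-Nd4l, and 63.6% of mt-Nd4, as well as 5 transfer RNA genes. For mt-Atp8 and these transfer RNA genes the search found no annotated copy, and their place in the stretch rests on the spacing of the pseudogenes. The identity of the copies to the genes is shown at the start of mt-Co2, whose first 90 bases occur unchanged in the pseudogene Gm28661.
mt-Co2, bases 1 to 90: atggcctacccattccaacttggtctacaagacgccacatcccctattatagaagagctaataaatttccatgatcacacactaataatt
In the aligned bases of the 7 pseudogenes 2 substitutions separated copy from gene, and both are given here with the differing base in capitals and positions counted from 1 at the gene's first base. The first was A1066T, between mt-Co1 and Gm29216.
mt-Co1, bases 1063 to 1096: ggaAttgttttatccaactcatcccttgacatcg
Gm29216, same stretch: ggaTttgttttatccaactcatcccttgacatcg
The second was T3C, between mt-Nd3 and Gm28438.
mt-Nd3, bases 1 to 33: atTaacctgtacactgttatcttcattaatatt
Gm28438, same stretch: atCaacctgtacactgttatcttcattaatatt

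STAR's gene counts leave out fragments that align equally well to more than 1 place. The 6 counted genes that lie wholly in the copied stretch together held 0.203% of the mitochondrial fragments. The 7 ribosomal RNA and protein genes outside it held 55.7%, and mt-Co1 and mt-Nd4, which lie partly in it, held 44.0%. Per kilobase of gene, the highest of the protein genes inside the stretch (mt-Co2, median 32.0 CPM per kilobase over 24 mice) lay 22.2-fold below the lowest outside it (mt-Nd6, 711 CPM per kilobase). mt-Atp8 had only 4 to 31 fragments per library, so its values carry the largest counting error of all members. The pseudogenes of the 5 genes with an annotated copy of nearly their whole length were listed with counts of the same order. The median count of Gm28438 was 56.6% of that of mt-Nd3 and that of Gm10222 92.0% of that of mt-Nd4l. Gm28661 had 108% of the count of mt-Co2, Gm28437 had 113% of mt-Co3 and Gm10925 had 195% of mt-Atp6. For the 6 genes inside the stretch, fragments of gene and copy cannot be told apart in these counts, and their values are read as uncertain below. The part of the copies in the low counts was not tested. Less similar copies lie elsewhere in the genome. Gm13341, at 95.9% identity to mt-Co2, had 118% of its count, while Gm13340, at 97.6% identity to mt-Co1, had 0.653% of its count and Gm11410, at 92.9% identity to mt-Cytb, had 0.0104%.

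STAR's gene counts also leave out fragments that overlap more than 1 gene, a rule that bears on the transfer RNA genes. The transfer RNA genes are 59 to 75 bases long, shorter than the reads of 150 bases, and 33 of the 37 genes lie within 5 bases of both neighbours. The transfer RNA gene with unstranded counts was mt-Tp, the proline transfer RNA, the last gene before the noncoding control region, with a median of 3537 fragments per library (2033 to 6403). The strand columns of the files, which assign a fragment to genes of 1 strand only, gave fragments to 14 of the 22 transfer RNA genes in at least 1 library and more than 100 fragments in every library to 8 of them. The highest were mt-Ts1, the serine transfer RNA beside mt-Co1 (median 9369 with both strand columns added), mt-Tp (4084) and mt-Tq, the glutamine transfer RNA (3702), and all are shown on their own strand because they stood highest.
mt-Ts1: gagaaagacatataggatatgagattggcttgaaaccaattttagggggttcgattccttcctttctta
mt-Tp: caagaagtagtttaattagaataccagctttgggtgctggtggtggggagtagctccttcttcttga
mt-Tq: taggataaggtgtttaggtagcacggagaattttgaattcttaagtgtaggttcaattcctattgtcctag
The libraries did not keep the strand of the RNA. The column for read 1 on the gene's strand held 50.1% of the fragments of mt-Rnr1 and 49.6% of those of mt-Cytb, so a fragment of mt-Co1 that runs into mt-Ts1, which overlaps its end on the other strand and lies in the copied stretch, cannot be told from a fragment of mt-Ts1. The uniquely placed fragments of the copied genes were less even, with 65.5% in that column for mt-Co2, 62.2% for mt-Atp6 and 63.4% for mt-Co3.

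Overlapping genes fall under the same rule. mt-Atp8 and mt-Atp6 share 43 bases on 1 strand, shown in capitals with 20 bases on either side.
mt-Atp8 to mt-Atp6: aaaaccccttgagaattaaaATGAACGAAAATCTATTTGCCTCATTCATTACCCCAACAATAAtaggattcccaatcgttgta
mt-Nd5 and mt-Nd6 run on opposite strands and share 14 bases at their ends, again in capitals and on the plus strand.
mt-Nd5 to mt-Nd6: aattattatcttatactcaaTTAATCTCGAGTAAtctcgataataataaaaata
With the strand columns added, the counts rose to 1.19 times the unstranded count for mt-Nd5 and 2.33 times for mt-Nd6, the only protein gene on the minus strand. For mt-Rnr1, mt-Rnr2, mt-Nd1, mt-Nd2 and mt-Nd4 the added columns came to 1.00 times the unstranded count.

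Among the genes outside the copied stretch or only partly in it, the order of levels per whole gene length was steep. mt-Co1 stood highest, at a median of 8211 CPM per kilobase (6902 to 16590 over 24 mice), and held 37.2% of all mitochondrial fragments. mt-Cytb followed at 4368 CPM per kilobase and mt-Nd1 at 3941, with mt-Cytb above mt-Nd1 in 23 of 24 mice. mt-Nd2 (2408 CPM per kilobase) and mt-Rnr2, the 16S ribosomal RNA (2344), were not separated, since mt-Nd2 was the higher in 14 of 24 mice. The same held for mt-Nd4 (1761 CPM per kilobase) and mt-Rnr1, the 12S ribosomal RNA (1755), where mt-Nd4 was the higher in 13 mice. mt-Nd5 (1354 CPM per kilobase) was lower than mt-Rnr1 in all 24 mice. mt-Nd6 (711 CPM per kilobase) and mt-Tp (687), both on the minus strand, stood lowest and were not separated, with mt-Nd6 the higher in 11 of 24 mice. The type of library preparation is not given, so how well each kind of RNA was captured is not known. The order is that of the libraries, and the ribosomal RNAs may stand elsewhere in the tissue. These levels per length do not allow for the copied parts of mt-Co1 and mt-Nd4. Divided by the bases outside the copied stretch alone, the medians were 11946 CPM per kilobase for mt-Co1 and 4833 for mt-Nd4. By that measure the median of mt-Nd4 lay above that of mt-Cytb (4368), so the place of mt-Nd4 in the order depends on the length used. The gap between mt-Nd5 and mt-Nd6 depended on how fragments were counted. With both strand columns added, which counts a fragment across mt-Nd5 and mt-Nd6 for each of them, the median was 1645 CPM per kilobase for mt-Nd5 and 1628 for mt-Nd6, with mt-Nd5 the higher in 8 of 24 mice. mt-Tp was then lowest at 812.9 CPM per kilobase, below mt-Nd6 in all 24 mice, and mt-Rnr1 lay above mt-Nd5 in 20.

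**Figure D1:**
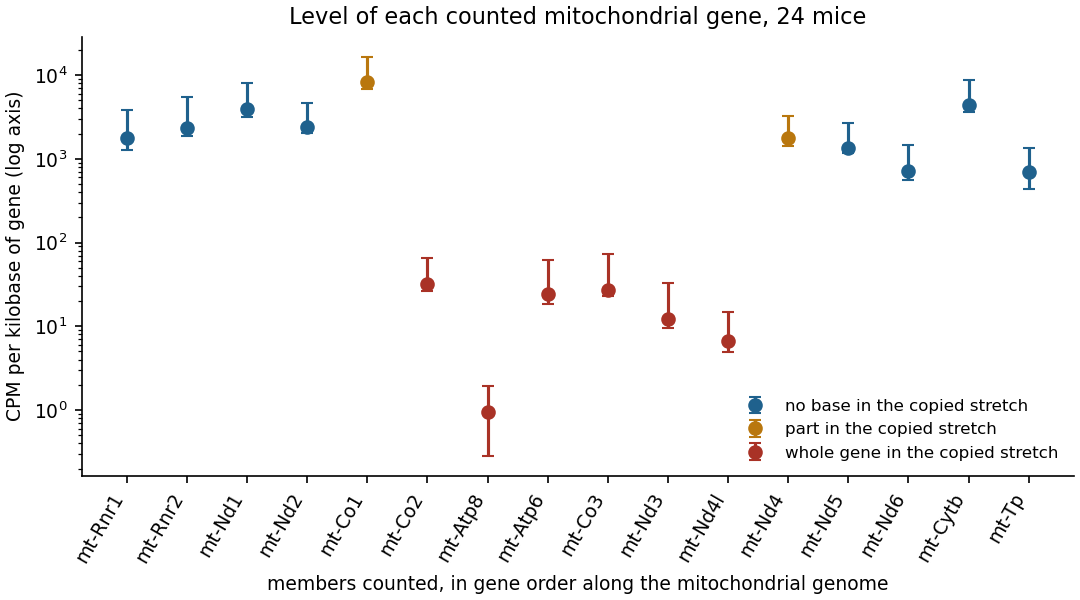
Median CPM per kilobase of gene (log axis) of the 16 mitochondrial genes with unstranded counts, in gene order, with bars from the lowest to the highest of 24 mice and colours for the place of the gene relative to the copied stretch. The 6 genes wholly inside the stretch lie at or below 32.0 CPM per kilobase, and the others have medians from 687 CPM per kilobase upward.

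The mitochondrial share, the percentage of fragments on genes that fell on the 37 mitochondrial genes, differed more between the batches and between single mice than between most genotypes. In batch 1, the 4 WT mice were at 3.03%, 3.24%, 3.27% and 3.41% (3.24% ± 0.158, SD, n = 4). SCA1 mice were at 3.39%, 3.32%, 3.40% and 3.97% (3.52% ± 0.301, SD, n = 4). SCA1 S776A mice were at 3.13%, 3.26%, 3.01% and 3.65% (3.26% ± 0.280, SD, n = 4). All 3 groups overlapped, and 1 SCA1 mouse stood above the other mice of its genotype. S776A double mice were at 3.84%, 3.68%, 3.57% and 3.11% (3.55% ± 0.314, SD, n = 4), where 1 mouse lay in the WT range and the other 3 exceeded it. In batch 2, the WT mice were at 4.38%, 3.35%, 4.06% and 4.01% (3.95% ± 0.431, SD, n = 4). WT S776A homozygous mice were at 3.84%, 4.11%, 4.82% and 6.73% (4.88% ± 1.31, SD, n = 4). The 6.73% was the highest of the 24 libraries. Counting error was small beside these differences, with a 95% Wilson confidence interval of 6.73% to 6.74% for that library, and such intervals cover counting error only.

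**Figure D2:**
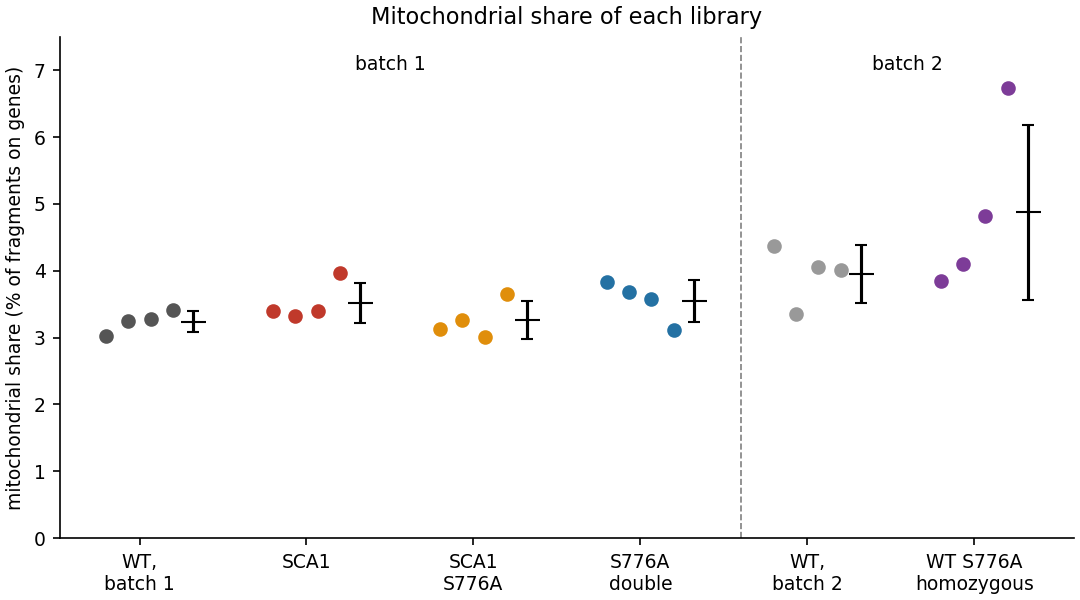
Mitochondrial share (% of fragments on genes) of each of the 24 libraries by genotype, with the mean and SD of each group of 4 beside its points and a dashed line between the inferred batches. The batch 1 libraries sit between 3.01% and 3.97%, and the highest point is the WT S776A homozygous library at 6.73%.

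As means, the share was 0.28 percentage points higher in SCA1 than in WT mice (SD within groups 0.241), 0.03 higher in SCA1 S776A (SD 0.227), 0.31 higher in S776A double (SD 0.248) and 0.93 higher in WT S776A homozygous mice (SD 0.973). The ranges of the compared groups overlapped in each of these comparisons. The size of the homozygous difference depended on 1 library. Without the mouse at 6.73% the mean was 4.26% ± 0.507 (SD, n = 3) and the difference 0.31 percentage points. Without SCA1 replicate 4, the mouse at 3.97%, the SCA1 difference was 0.134. The SCA1 S776A difference changed sign, to -0.104 without SCA1 S776A replicate 4 and below 0 also without WT replicate 1. Among the genotypes with the expanded allele, the share was 0.26 percentage points lower in SCA1 S776A than in SCA1 mice, and 0.29 higher in S776A double than in SCA1 S776A mice, both within 1 SD. The first was -0.108 without SCA1 replicate 4 and -0.388 without SCA1 S776A replicate 4, and the second 0.190 without S776A double replicate 1 and 0.433 without S776A double replicate 4. S776A double and SCA1 mice differed by 0.03, a value whose sign depended on the mouse left out (-0.0676 to 0.178). In bulk tissue, more mitochondrial RNA per cell and more cells rich in it cannot be told apart. The ribosomal RNAs took 14.7% ± 0.698 of mitochondrial fragments in WT mice of batch 1, 16.1% ± 0.433 in SCA1, 15.6% ± 0.595 in SCA1 S776A and 15.4% ± 0.249 in S776A double mice (SD, n = 4 each). In batch 2 they took 16.0% ± 1.46 in WT and 16.4% ± 1.23 in WT S776A homozygous mice (SD, n = 4 each). Every SCA1 mouse lay above the WT mice of batch 1 in this ribosomal share, with a lowest SCA1 value of 15.6% beside a highest WT value of 15.4%.

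In SCA1 mice none of the 16 mitochondrial genes tested was called against WT by edgeR's quasi-likelihood test. A call needed an adjusted p below 0.01 and a log2 fold change beyond 0.5 in either direction. Over all genes tested 0.173% were called. Of the members, 14 had a higher and 2 a lower fitted level, with a median log2 fold change of 0.08 beside 0.00 over all 22502 genes tested, and 1 member had an unadjusted p under 0.05, beside 8.25% of all genes tested. Without SCA1 replicate 4 the median over members was 0.04. With mice of batch 1 only, 3 members had an unadjusted p under 0.05, beside 12.4% of all genes tested. The 1 member under 0.05 in all mice was mt-Tp. Its CPM were 35.0, 37.3, 31.0 and 31.3 in the WT mice of batch 1 and 45.7, 46.3, 44.7 and 53.8 in SCA1 mice, so that every SCA1 mouse stood above every WT mouse. The log2 fold change of mt-Tp was 0.50 (standard error 0.155, adjusted p = 0.238 by edgeR with Benjamini-Hochberg adjustment). The reads are longer than this gene and the strand was not kept. Counts of mt-Tp, here and below, therefore cannot tell the mature transfer RNA from longer RNAs of either strand. The second lowest p belonged to mt-Rnr2, at 2939, 3342, 3259 and 3532 CPM in WT and 3665, 3725, 3809 and 4071 CPM in SCA1 mice. These groups did not overlap either, and the log2 fold change was 0.22 (standard error 0.158, adjusted p = 0.775 by edgeR). For mt-Co1 the WT mice reached 12004 CPM and the lowest SCA1 mouse had 12073 CPM. These 3 members were the ones with every SCA1 mouse above every WT mouse, a pattern shown by 3.77% of all genes tested, and 0 members had every SCA1 mouse below, beside 4.99% of all genes tested. The members share their precursors, so they are not independent of each other. The p-values here measure the spread between these mice, and the comparisons of batch 1 share their 4 WT mice. Cell type markers differed between the same groups. The summed Purkinje markers were at 4974 to 5558 CPM in SCA1 and 6554 to 7556 CPM in the WT mice of batch 1, and 4 of the 5 markers had every SCA1 mouse below every WT mouse. For the oligodendrocyte markers the median sum was 6561 CPM in SCA1 and 5365 CPM in WT mice, and 0 of the 3 markers had every SCA1 mouse above. The part of these differences in the mitochondrial values was not tested.

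In SCA1 mice, complex I genes outside the copied stretch had log2 fold changes of 0.09 for mt-Nd1, 0.08 for mt-Nd2, 0.10 for mt-Nd5 and 0.13 for mt-Nd6, with standard errors of 0.119 to 0.153. mt-Cytb was at 0.05 (standard error 0.128) and mt-Nd4 at 0.02 (standard error 0.12). mt-Rnr1 was at 0.22 (standard error 0.167) and mt-Co1 at 0.08 (standard error 0.114). Of the genes in the copied stretch, mt-Nd3 was at 0.14, mt-Atp6 at 0.05, mt-Co2 at 0.01, mt-Co3 at -0.01 and mt-Nd4l at -0.04. mt-Atp8 had the widest error, at 0.32 (standard error 0.364).

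In SCA1 S776A mice 0 of the 16 mitochondrial genes were called against WT by edgeR, 0 had an unadjusted p under 0.05, and 0 were called by DESeq2. Over all genes tested 0.0133% were called. The fitted level was higher for 5 members and lower for 11, and the median log2 fold change was -0.02. Leaving out 1 mouse, the median lay between -0.09 and 0.02. All 5 blood markers had every SCA1 S776A mouse above every WT mouse (sums of 127 to 203 CPM beside 86.9 to 104 CPM), and their part in these values was not tested. The lowest p belonged to mt-Nd4l, in the copied stretch, at 2.35, 2.19, 1.83 and 1.59 CPM in WT and 1.62, 1.64, 1.95 and 1.62 CPM in SCA1 S776A mice, which overlap (log2 fold change -0.22, standard error 0.183). mt-Tp stood at 45.2, 43.4, 29.1 and 34.2 CPM, with 2 mice above the WT range, 1 within it and 1 below it (log2 fold change 0.17, standard error 0.155). No member had every SCA1 S776A mouse above or below every WT mouse, patterns shown by 1.87% and 2.52% of all genes tested.

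In S776A double mice 0 of the 16 members were called by edgeR, beside 0.0267% of all genes tested. The fitted level was higher for 15 members and lower for 1, with a median log2 fold change of 0.14. mt-Tp again had the lowest p, at 58.7, 48.7, 51.6 and 42.4 CPM, all above the WT mice of batch 1, which reached 37.3 CPM. Its log2 fold change was 0.58 (standard error 0.155, adjusted p = 0.33 by edgeR), and it was the single member with an unadjusted p under 0.05 in the fit of all mice, beside 6.93% of all genes tested. Members under 0.05 numbered 3 without WT S776A homozygous replicate 4 and 2 without WT replicate 5, mice that enter only the shared spread and the batch term. With mice of batch 1 only, 7 of the 16 members had an unadjusted p under 0.05 (lowest adjusted p = 0.0818 by edgeR), beside 12.7% of all genes tested. With ComBat-seq followed by DESeq2, the steps of the study, mt-Tp was called in this comparison (log2 fold change 0.58, adjusted p = 0.00151), and in SCA1 mice it passed the p threshold with a log2 fold change of 0.4986, just under the fold limit (adjusted p = 0.00632). These steps called 0.263% of the genes they tested in S776A double and 0.62% in SCA1 mice. Next came mt-Nd3, in the copied stretch, at 3.40, 3.34, 3.83 and 3.75 CPM in WT and 4.24, 4.89, 4.83 and 4.10 CPM in S776A double mice (log2 fold change 0.33, standard error 0.18, adjusted p = 0.753 by edgeR). mt-Tp, mt-Nd3 and mt-Atp6 were the members with every S776A double mouse above every WT mouse, beside 3.56% of all genes tested. No member had every mouse below, beside 3.54% of all genes.

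The mt-Tp difference was also computed on other scales. Relative to the sum of the mitochondrial genes, the log2 fold change of mt-Tp was 0.40 in SCA1 mice (adjusted p = 0.58 by edgeR) and 0.45 in S776A double mice (adjusted p = 0.706). Without a batch term it was 0.11 and 0.19, since the WT mice of batch 2 stood at 44.4 to 59.5 CPM. Between the genotypes with the expanded allele, mt-Tp was lower in SCA1 S776A than in SCA1 mice (log2 fold change -0.33, standard error 0.154) and higher in S776A double than in SCA1 S776A mice (0.41, standard error 0.154), neither called by edgeR.

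In WT S776A homozygous mice all 16 members had a higher fitted level than in the WT mice of batch 2, with a median log2 fold change of 0.35 (0.24 to 0.55) beside 0.01 over all genes tested. None was called by edgeR, and 0% of all genes tested were called. Of the 16 members, 11 had an unadjusted p under 0.05, and the lowest adjusted p was 0.485, while 9.98% of all genes tested had an unadjusted p under 0.05. The count of 11 fell to 6 without homozygous replicate 3, 5 without WT replicate 6, and 7 without WT replicate 7 or 8. With mice of batch 2 only, 5 members had an unadjusted p under 0.05, beside 4.31% of all genes tested. The lowest p belonged to mt-Nd5, at 2734, 2139, 2720 and 2654 CPM in WT and 2623, 2759, 3415 and 4828 CPM in homozygous mice (log2 fold change 0.41, standard error 0.129, adjusted p = 0.485 by edgeR). The second belonged to mt-Nd6, at 378, 288, 391 and 427 CPM in WT and 367, 432, 502 and 754 CPM in homozygous mice (log2 fold change 0.47, standard error 0.153, adjusted p = 0.485 by edgeR). Both pairs of groups overlapped, and the highest value of either gene came from the library with the highest mitochondrial share. No member had every homozygous mouse above or below every WT mouse, patterns shown by 1.32% and 1.34% of all genes tested. Without that 1 library the median log2 fold change over members fell to 0.15 (0.06 to 0.44), 0 members had an unadjusted p under 0.05, and mt-Nd5 and mt-Nd6 stood at 0.19 and 0.22 (standard errors 0.095 and 0.113).

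**Figure D3:**
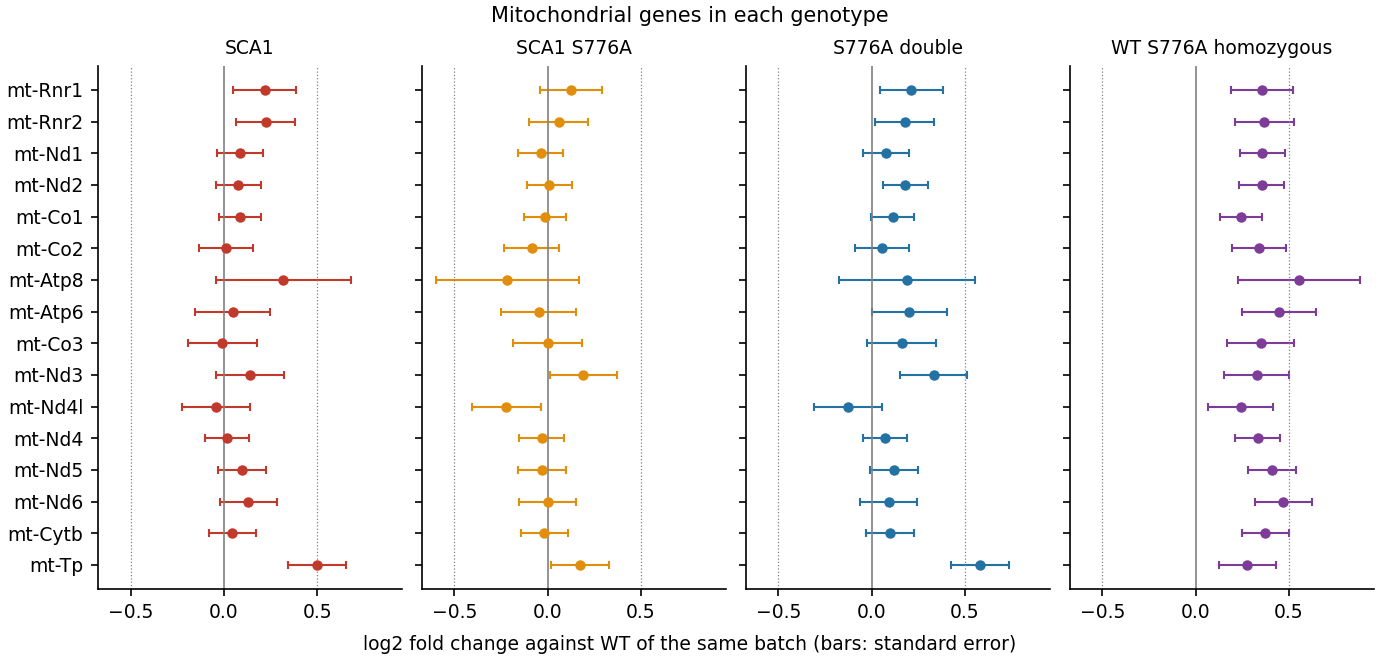
Log2 fold change of the 16 tested mitochondrial genes against the WT mice of the same batch, with standard errors, in each of the other genotypes, and dotted lines at 0.5 and -0.5. mt-Tp lies furthest to the right in SCA1 (0.50) and S776A double mice (0.58), and all members lie to the right of 0 in WT S776A homozygous mice.

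Between the genotypes that carry the expanded allele no member was called by edgeR. All genes tested were called at 0.00444% for SCA1 S776A against SCA1, 0% for S776A double against SCA1 and 0% for S776A double against SCA1 S776A. Members with an unadjusted p under 0.05 numbered 1, 0 and 1 of 16 in these 3 comparisons, beside 4.35%, 3.64% and 2.96% of all genes tested. The member was mt-Tp in both cases. The median log2 fold change of the members was -0.10, 0.04 and 0.13, and in the last of the 3 comparisons all 16 members were higher in S776A double mice. An interaction was also computed, the difference of S776A double from SCA1 S776A mice minus that of WT S776A homozygous from WT mice. The first difference adds S776A on 1 allele and the second on both alleles. No group carried S776A on 1 allele without the expanded allele. The interaction therefore cannot say whether a second S776A allele acts differently beside the expanded allele. It called 0 members by edgeR and 0 by DESeq2, beside 0% of all genes by edgeR. Members with an unadjusted p under 0.05 numbered 0, beside 2.88% of all genes tested. DESeq2 likewise called 0 members in each of the other comparisons. Over all genes it called 66 of 18837 tested in SCA1 and 9 of 21142 in SCA1 S776A mice against WT. In S776A double mice it called 20 of 18071 and in WT S776A homozygous mice 0 of 40351.

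The 7 transfer RNA genes that entered the fits of the strand columns beside mt-Tp (mt-Tq, mt-Tw, mt-Ta, mt-Ty, mt-Ts1, mt-Te and mt-Tt) gave 0 calls against WT in either column. Over 21525 genes tested, 1 column had 32 calls for SCA1, 1 for SCA1 S776A, 5 for S776A double and 0 for WT S776A homozygous mice. Over 21505 genes the other column had 34, 1, 7 and 0. A fragment across neighbours on opposite strands can count for each of them, in different columns, since the strand was not kept. mt-Tt can thus share fragments with mt-Tp, and mt-Te with mt-Cytb, so their values are not separate measurements. In SCA1 mice mt-Te, the glutamate transfer RNA, had a log2 fold change of 0.26 in 1 column and 0.20 in the other (standard errors 0.152 and 0.148). mt-Tt, the threonine transfer RNA beside mt-Tp, had 0.28 and 0.18 (standard errors 0.167 and 0.191). In S776A double mice mt-Tt had 0.31 and 0.30 and mt-Te 0.10 and 0.09, with standard errors of 0.148 to 0.189. mt-Ts1 stood at -0.07 and -0.06 in SCA1 mice (standard error 0.248).

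The mitochondrial transcripts moved together from mouse to mouse. Over mice of 1 batch, log2 CPM of mt-Cytb and mt-Nd1 had Pearson's r = 0.93 and Spearman's rho = 0.95 in batch 1 (n = 16, permutation p = 2e-05 for either, the smallest that 100000 resamples can give) and r = 0.99 and rho = 0.98 in batch 2 (n = 8, exact permutation p = 0.000397 for either). mt-Nd6, a gene of the other strand, followed mt-Cytb with r = 0.87 and rho = 0.88 in batch 1 (n = 16, permutation p = 2e-05 and 4e-05). In batch 2 they had r = 0.98 and rho = 0.90 (n = 8, exact permutation p = 0.00164 and 0.00456). The libraries did not keep the strand, so RNA of either strand at this place counts for mt-Nd6. The relation therefore does not compare transcription of the strands. mt-Rnr2 had r = 0.80 and rho = 0.79 with mt-Cytb in batch 1 (n = 16, permutation p = 0.00018 and 0.00044) and r = 0.97 and rho = 0.88 in batch 2 (n = 8, exact permutation p = 0.000496 and 0.00724). mt-Co3, in the copied stretch, had r = 0.73 and rho = 0.62 in batch 1 (n = 16, permutation p = 0.00304 and 0.0112) and r = 0.84 and rho = 0.76 in batch 2 (n = 8, exact permutation p = 0.00838 and 0.0368). All tests were two-sided, 16 relations were computed, and the Benjamini-Hochberg adjusted p of r was at most 0.0134 for these pairs, while that of rho reached 0.0588 for mt-Co3 in batch 2.

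Without the 2 mice farthest from the median of mt-Cytb, r in batch 1 was 0.90 for mt-Nd1, 0.86 for mt-Nd6, 0.68 for mt-Rnr2 and 0.77 for mt-Co3. In batch 2 it was 0.90, 0.83, 0.87 and 0.52, where the relation with mt-Co3 rested on those 2 mice (n = 6, exact permutation p = 0.406) and that with mt-Nd6 no longer passed 0.05 (n = 6, exact permutation p = 0.0917). As deviations from the mean of each group of 4 over all 24 mice, the 21 pairs among the 7 ribosomal RNA and protein genes outside the copied stretch had r between 0.88 and 0.97 with a median of 0.94. The 10 pairs among the copied genes above 1 CPM had r between 0.74 and 0.95, and the 35 pairs between both sets had r between 0.48 and 0.92. These values share the library, its depth and its scaling, and are given as a description.

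The same scatter was seen in a count of the aligner that uses no gene but is not independent of mitochondrial RNA. mt-Cytb rose with the multimapping share, the percentage of fragments that aligned to more than 1 place, with r = 0.92 and rho = 0.89 in batch 1 (n = 16, permutation p = 2e-05 for either, the smallest that the resamples can give). In batch 2 it had r = 0.99 and rho = 0.98 (n = 8, exact permutation p = 0.000149 and 0.000397). The adjusted p of r was 0.000107 and 0.000576, and r without the 2 farthest mice was 0.88 and 0.92. This relation was chosen after the data were seen. The multimapping share includes fragments of the copied stretch that align equally well to the mitochondrial genome and to chromosome 1. A relation with mt-Cytb is therefore in part built in. With the depth of the library mt-Cytb had r = 0.34 in batch 1 (n = 16, permutation p = 0.205) and r = -0.69 in batch 2 (n = 8, exact permutation p = 0.0419, adjusted p = 0.061), where r was -0.44 without the 2 farthest mice. With the share of fragments outside annotated genes r was -0.25 and 0.21, and with the share of ambiguous fragments 0.01 and -0.39 (permutation p of at least 0.265 for each, exact in batch 2 with n = 8). The multimapping share was higher in S776A double than in WT mice by 0.153 percentage points and in SCA1 mice by 0.111. How much of these differences is made up of mitochondrial fragments was not tested.

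**Figure D4:**
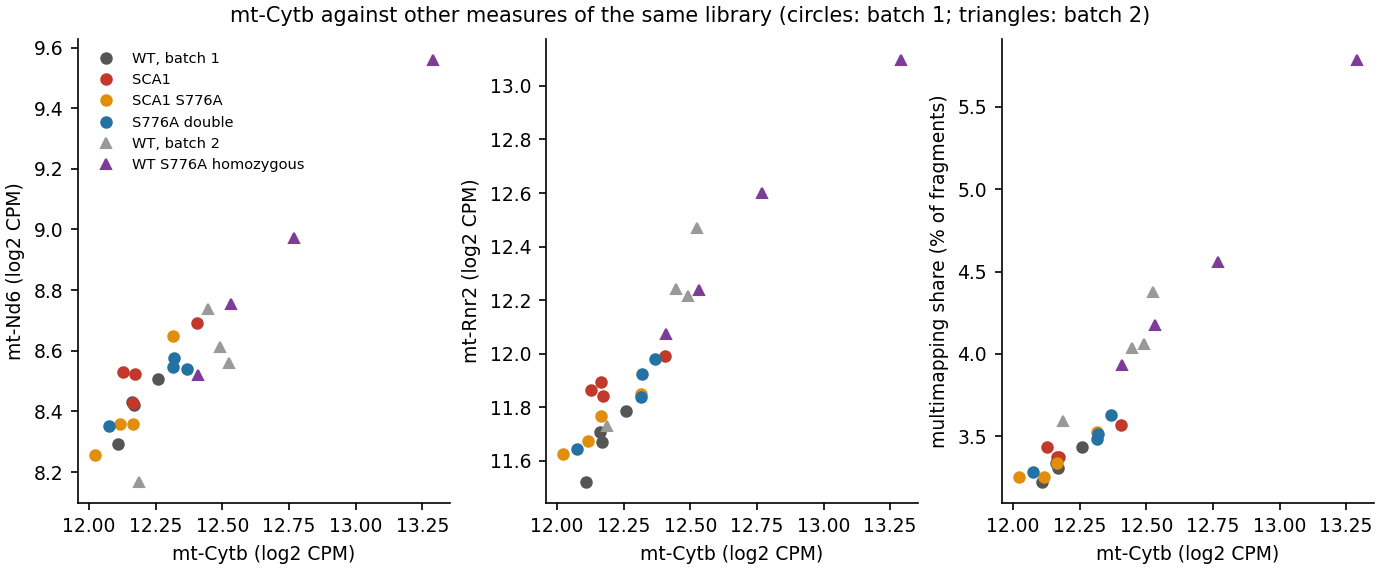
Log2 CPM of mt-Nd6, log2 CPM of mt-Rnr2 and the multimapping share (% of fragments) against log2 CPM of mt-Cytb in each of the 24 libraries, coloured by genotype, with circles for batch 1 and triangles for batch 2. All 3 rise with mt-Cytb within either batch, and the WT S776A homozygous library with the highest mitochondrial share lies at the upper right of each panel.

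That library, WT S776A homozygous replicate 4, had the highest CPM of the 24 libraries for all 16 counted members. Against the median of the other 3 mice of its genotype, the members were higher by a log2 of 0.33 for mt-Atp8 to 0.98 for mt-Rnr1, with a median of 0.74. mt-Rnr1 stood at 3687 CPM beside 1750 to 2507 CPM in those 3 mice, and mt-Rnr2 at 8766 CPM beside 4305 to 6204 CPM. mt-Cytb was at 10017 CPM beside 5442 to 6986 CPM. The rise was smaller for mt-Nd4 (log2 0.58) and mt-Nd1 (log2 0.60). mt-Rnr1 made up 5.20% of mitochondrial fragments beside 4.28% to 5.05% in the other 7 libraries of batch 2. mt-Co1, at 36.1%, made up less than in any of those libraries, of which the highest had 41.6%. mt-Cytb (14.1%), mt-Nd5 (6.81%) and mt-Nd6 (1.06%) lay slightly above the highest of those libraries (13.9%, 6.79% and 1.02%). The remaining members, among them mt-Rnr2, mt-Nd1 and mt-Nd4, lay within the range of those libraries. The nuclear copies were highest in the same library too, with Gm28661 at 44.7 CPM beside a median of 23.6 CPM over 24 mice and Gm10925 at 74.0 beside 32.3 CPM.

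Other measures of the same library also stood apart. Its multimapping share, which includes mitochondrial fragments of the copied stretch, was 5.79% beside 3.59% to 4.56% in the other libraries of batch 2. Its shares of fragments outside genes (6.01%), ambiguous fragments (5.26%) and unmapped fragments (4.44%) lay within the range of that batch. Its 74813731 fragments on genes were the fewest of batch 2. The summed markers of oligodendrocytes (9250 CPM beside 5207 to 8786 CPM in the other 23 libraries), granule cells (4834 beside 3112 to 4654 CPM) and microglia (52.4 beside 30.1 to 47.4 CPM) were the highest of all libraries. Among the granule markers Cbln1, at 1530 CPM, was the lowest of the homozygous mice, while the others were the highest of the 24 libraries. The Purkinje markers, at 5329 CPM, were the lowest of batch 2 (5545 to 6655 CPM in its other libraries). Among them Itpr1 was the lowest of the 24 libraries, at 1178 CPM beside 1949 to 2376 CPM in the WT mice of batch 2. The other 4 Purkinje markers lay within the range of those WT mice. Calb1 was at 1515 beside 1240 to 1580 CPM and Car8 at 2166 beside 1906 to 2324 CPM. Bergmann glia and astrocyte markers (2397 CPM beside 2470 to 2687 CPM) and immediate early genes (70.7 beside 76.5 to 161 CPM) were also the lowest of batch 2, and markers of choroid plexus and blood lay within the range of that batch. The part of these measures in the mitochondrial share was not tested.

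**Figure D5:**
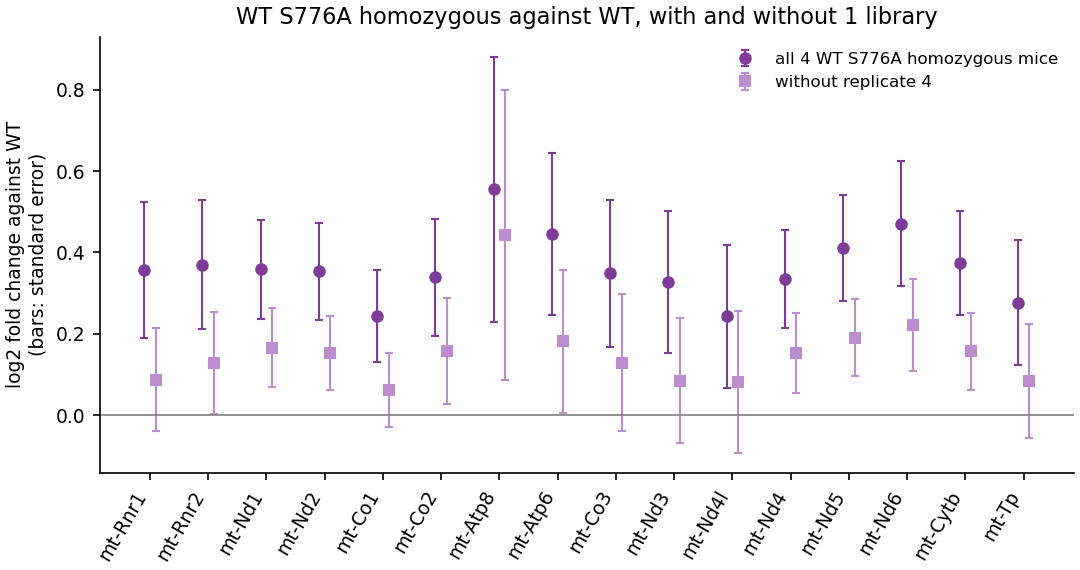
Log2 fold change of each tested mitochondrial gene between WT S776A homozygous and WT mice with standard errors, from the fit of all mice and from the fit without homozygous replicate 4. All members lie above 0 in both fits, and the median falls from 0.35 to 0.15.

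The nuclear genes that act on mitochondrial RNA were followed in a list of 54 genes, all of which passed the expression filter. None was called in any comparison. The list held 16 genes of transcription and genome maintenance, 21 of RNA processing and decay, 12 of RNA modification and ribosome assembly and 5 nuclear regulators. The median over the list, as log2 fold change from WT, was 0.00 in SCA1, -0.02 in SCA1 S776A, 0.00 in S776A double and 0.06 in WT S776A homozygous mice, and 3, 0, 3 and 4 of the 54 had an unadjusted p under 0.05 in edgeR. Over all genes tested the share under 0.05 was 8.25%, 3.93%, 6.93% and 9.98%, so these counts do not exceed the background. The gene with the lowest p in both SCA1 and S776A double mice was Gtpbp3, which modifies mitochondrial transfer RNAs. It stood at 29.3, 28.0, 29.9 and 29.2 CPM in WT, 26.5, 27.0, 24.8 and 27.4 CPM in SCA1 and 26.5, 25.7, 26.1 and 26.0 CPM in S776A double mice, so that neither genotype overlapped the WT mice. Every mouse below every WT mouse was seen in 4.99% (SCA1) and 3.54% (S776A double) of all genes tested. Its log2 fold changes were -0.14 (adjusted p = 0.547 by edgeR) and -0.16 (adjusted p = 0.631), with a standard error of 0.06 each. In SCA1 S776A mice the lowest p belonged to Slirp, whose protein stabilizes mitochondrial messenger RNAs, but its level of 0.03 to 0.14 CPM in either group rests on few fragments (log2 fold change -1.11, standard error 0.598, adjusted p = 1.00 by edgeR). In WT S776A homozygous mice it belonged to Tfam, the factor that packages mitochondrial DNA and starts its transcription. Tfam stood at 51.4, 47.9, 49.6 and 50.3 CPM in WT and 49.7, 51.3, 59.2 and 70.0 CPM in homozygous mice (log2 fold change 0.21, standard error 0.0724, adjusted p = 0.485 by edgeR). The groups overlapped, and the highest value of Tfam came from the library with the highest mitochondrial share.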

How the data were processed

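RNA from 24 cerebella was extracted with miRNeasy columns and sequenced as paired reads of 150 bases on an Illumina HiSeq instrument; the type of library preparation is not given in the sources used here. The authors used Trimmomatic 0.36 for trimming and STAR 2.7.2d for alignment to GRCm38.p6, and deposited raw fragment counts per gene, unstranded and for each strand, from fragments with 1 alignment that overlap 1 gene. The unstranded counts were used unless stated. Of the gene identifiers, all 37 of the mitochondrial genes matched GENCODE M21, and 1 further feature is not reported here.

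Genotypes came from the labels. The batch was inferred by k-means with 2 clusters on the shares of unmapped, multimapping, no-feature and ambiguous fragments (scikit-learn 1.9.0). Counts were tested with edgeR 4.0.16 (R 4.3.3; TMM, filterByExpr, robust quasi-likelihood fit, genotype and batch as terms) over 22502 genes with Benjamini-Hochberg adjustment. As in the study, a call needed an adjusted p below 0.01 with a log2 fold change beyond 0.5 in either direction. On simulated data with 200 genes changed by a log2 of 1 in the SCA1 against WT comparison, 97% were called, and no unchanged gene, of 22247 genes tested. Correlations used permutation tests (scipy 1.17.1). Nuclear copies were searched among annotated transcripts with blastn 2.17.0, at 90% identity and 150 aligned bases or more.

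The genes named are the 13 protein genes, both ribosomal RNAs, the 3 transfer RNAs with the highest level, the 2 members with the lowest p in each comparison with WT, the member standing furthest out in the library with the highest share, and 1 gene of the nuclear list for each comparison with WT. mt-Te, mt-Tt and the single markers Itpr1, Calb1, Car8 and Cbln1 were named after their values were seen. The members and lists were chosen with earlier results of these data known. Alternatives were DESeq2 1.42.0, ComBat-seq (sva 3.50.0) before DESeq2, no batch term, no filter on low counts, library sizes from nuclear genes, either strand column, scaling to the mitochondrial sum, mice of 1 batch only and leaving out each mouse. The relations to the multimapping share and a batch inference without that share were added after seeing the data. Confidence intervals are 95% Wilson intervals, and these and the limit of 3 counts for a count of 0 cover counting error only.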

Additional observations from a re-analysis of the deposited data

Results flagged for a closer look

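Within groups of 4 mice, 8 values of 108 groups examined stood apart by Dixon's test, which by chance marks about 1 in 20 groups. The mitochondrial share of SCA1 replicate 4 was 3.971%, beside 3.323% to 3.401% in the other 3 SCA1 mice. The same library stood highest for mt-Cytb, at a log2 CPM of 12.40 beside 12.13 to 12.17. In SCA1 S776A mice, replicate 4 was high for mt-Co3 (log2 CPM 4.552 beside 4.177 to 4.242) and mt-Nd5 (11.32 beside 11.11 to 11.13), and replicate 3 was high for mt-Nd4l (0.983 beside 0.715 to 0.737). S776A double replicate 4 was low for mt-Nd6 (8.35 beside 8.538 to 8.577). Among WT mice, replicate 4 was low for mt-Atp8 (-3.022 beside -2.247 to -2.152), where few fragments were counted, and replicate 6 was low for mt-Nd5 (11.06 beside 11.37 to 11.42). The WT S776A homozygous library with the highest mitochondrial share was not marked by this test.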

How the results depend on the processing

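With ComBat-seq followed by DESeq2 the count of called members in S776A double mice was 1 (mt-Tp) in place of 0. In each comparison leaving out 1 mouse left the count of called members at 0. Over all genes tested, the calls against WT, with SCA1 first, then SCA1 S776A, then S776A double and last the homozygous mice, were 39, 3, 6 and 0 with edgeR, 118, 32, 50 and 99 with ComBat-seq and DESeq2, and 66, 9, 20 and 0 with DESeq2. With mice of batch 1 only, edgeR called 65, 0 and 11 genes in the first 3. Of 832 alternative fold changes of named genes, 822 kept their direction or changed sign within 1 standard error (77), and 10 reversed. Without a batch term these were, as log2 fold changes, mt-Rnr2 in SCA1 mice (-0.055), mt-Nd3 (-0.26) and mt-Tp (-0.21) in SCA1 S776A mice, and mt-Rnr1 (-0.0037), mt-Rnr2 (-0.10), mt-Atp6 (-0.063) and mt-Nd3 (-0.12) in S776A double mice. Relative to the mitochondrial sum they were mt-Co1 (-0.072), mt-Nd4l (-0.0505) and mt-Tp (-0.038) in WT S776A homozygous mice. The cause was not tested. In batch 2 without the 2 mice farthest from the median, r of mt-Cytb was 0.52 with mt-Co3, 0.83 with mt-Nd6 and -0.44 with depth, and as deviations from the genotype mean it was -0.52 with depth.

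Leaving out 1 mouse, the difference in mitochondrial share from WT ranged from 0.134 to 0.350 percentage points for SCA1 (lowest without SCA1 replicate 4), -0.104 to 0.112 for SCA1 S776A, 0.216 to 0.459 for S776A double and 0.306 to 1.27 for WT S776A homozygous mice (lowest without homozygous replicate 4). It ranged from -0.388 to -0.108 for SCA1 S776A against SCA1, -0.0676 to 0.178 for S776A double against SCA1 and 0.190 to 0.433 for S776A double against SCA1 S776A mice. The interaction was not run within 1 batch because it spans both. No paired analysis was possible because the labels give no replicate numbers (those used here only name mice, in the order of their listing). Depth limits mt-Atp8, with 4 to 31 fragments per library.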
